A study of Mus musculus with 18 samples.

Results

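Matrix metalloproteinases (Mmp), the secreted proteases with thrombospondin repeats (Adamts) and the tissue inhibitors of metalloproteinases (Timp) were followed in mouse fibroblasts during reprogramming to pluripotency. The members are all genes whose symbol is Mmp, Adamts or Timp followed directly by a number and an optional letter, each read from the probe set with the highest mean over 18 arrays. They number 44 of 22180 genes: 22 Mmp, 18 Adamts and 4 Timp genes. In the 2 time courses, bulk cultures of embryonic fibroblasts from a reprogrammable mouse (MEFs, strain Black6-129X1/SvJ) expressed the factors Oct4, Klf4, Sox2 and c-Myc (OKSM). The control arm had OKSM alone and the other had OKSM with ascorbic acid and a GSK3 inhibitor (AGi). Each arm gave 1 array on days 2, 4, 6, 8, 10 and 12. The other 6 arrays, 1 each, held embryonic stem cells (ESCs), MEFs without doxycycline, granulocyte-monocyte progenitors (GMPs), Thy1+ cells sorted after 3 days of OKSM and labelled refractory, fibroblast-derived iPSCs made with 96 hours of OKSM+AGi, and GMP-derived iPSCs made with 48 hours of it. Both arms carry the same OKSM system, and AGi is a pair of agents whose separate effects were not measured.

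Metalloproteinases of the Mmp family are zinc proteases that cut collagens, proteoglycans, other matrix proteins and signalling molecules, and most are secreted as inactive precursors. Adamts proteases are secreted and bind the matrix; several cut the large proteoglycans aggrecan and versican, and others trim procollagens or act on fibrillin microfibrils. The Timps are small secreted proteins that block the active site of Mmps, and Timp3 also inhibits several Adamts proteases. Fibroblasts are a main source of all 3 families, and several Mmp genes are known to be induced in activated fibroblasts.

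Values are log2 signals, so a difference of 1 is a 2-fold difference in signal. A gene entered the tests if 3 or more of the 12 arrays of the time courses showed it at or above that array's median (6.32 to 6.46). That was so for 13865 genes and for 30 of the 44 members: 14 of 22 Mmp, 13 of 18 Adamts and 3 of 4 Timp genes. Some members reached the median almost only where they were high. Mmp10 did so on the 3 late AGi arrays alone and Adamts3 on 4 OKSM arrays alone, while Mmp3 did so on the 6 late arrays alone, so differences along those lines are partly how they entered the test. Mmp13 did so on 6 late arrays and 1 early one, and Adamts20 on 6 early arrays and 1 late one, so the same holds for their late differences. The counts given describe tested members and not all 44. The other 14 members lay between 3.70 and 6.44 on every time-course array. They are Adamts8, Adamts13, Adamts16, Adamts18, Adamts19, Mmp1a, Mmp1b, Mmp7, Mmp8, Mmp12, Mmp20, Mmp25, Mmp27 and Timp4.

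Cell identity on the arrays was read from marker lists. The mean of 14 fibroblast markers was 9.97 in MEFs, 8.70 to 10.37 in OKSM and 7.77 to 9.64 in OKSM+AGi, while the mean of 10 pluripotency markers reached 7.79 in OKSM and 10.43 in OKSM+AGi against 10.78 in ESCs. The mean of 10 neutrophil-lineage markers was 10.47 in GMPs and at most 5.73 elsewhere in the time courses. In these bulk cultures fewer cells of a type and less RNA per cell cannot be told apart. All 18 hybridisation control probe sets were higher with AGi, by 0.06 to 0.26 (mean 0.17).

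On chromosome 9, 10 Mmp genes lie next to each other, with no other protein-coding gene between them in the RefSeq table of GRCm38.p6: Mmp13, Mmp12, Mmp1b, Mmp3, Mmp1a, Mmp10, Mmp8, Mmp27, Mmp20 and Mmp7. Only Mmp3, Mmp10 and Mmp13 of the 10 were tested, and their sequences are shown because they were higher late in 1 or both time courses, with Mmp8 as a neighbour high only in GMPs and Timp3 as an inhibitor from another chromosome. Each stretch is RefSeq sequence of GRCm38.p6 on the plus strand, from 120 bases before the gene's start to 20 after it; capitals mark TGACTCA, the AP-1 motif, and TATAAA, the TATA box, on either strand.
Mmp13, chr9:7272394-7272533: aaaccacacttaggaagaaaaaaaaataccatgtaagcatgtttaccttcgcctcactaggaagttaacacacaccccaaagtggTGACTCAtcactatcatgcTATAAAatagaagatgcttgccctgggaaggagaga
Mmp3, chr9:7445702-7445841: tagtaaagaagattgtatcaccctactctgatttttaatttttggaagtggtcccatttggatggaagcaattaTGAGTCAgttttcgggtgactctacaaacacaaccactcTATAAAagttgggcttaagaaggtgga
Mmp10, chr9:7502222-7502361: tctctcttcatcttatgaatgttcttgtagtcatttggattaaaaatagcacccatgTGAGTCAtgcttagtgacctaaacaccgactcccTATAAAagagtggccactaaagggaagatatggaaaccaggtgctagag
Mmp8, chr9:7558309-7558448: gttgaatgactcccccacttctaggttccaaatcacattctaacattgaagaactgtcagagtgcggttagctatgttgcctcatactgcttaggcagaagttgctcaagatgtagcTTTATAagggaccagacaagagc
Timp3, chr10:86300292-86300431: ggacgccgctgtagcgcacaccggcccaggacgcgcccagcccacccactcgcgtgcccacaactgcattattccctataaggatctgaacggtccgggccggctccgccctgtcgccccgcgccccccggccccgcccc
Mmp13, Mmp3 and Mmp10, the members of this run that were higher late, each have an AP-1 motif upstream of a TATA box. In Mmp13 the motif's first base lies at -35 from the start, in Mmp3 at -46 and in Mmp10 at -63. Over windows of 300 bases (250 before and 50 after the start), TGACTCA on either strand was in 7 of the 10 neighbouring genes, in none of the other 20 of the 30 members with a window, and in 5.95% of 27025 genes. TATAAA was in 9 of the 10 and in 15.7% of all genes. The GC box GGGCGG was in 0 of the 10, in 16 of the 30 members and in 38.2% of all genes. The motif does not separate late genes from the rest of the run: Mmp12, Mmp1a, Mmp1b and Mmp7 also hold it, and those 4 stayed between 3.70 and 6.08 on every time-course array. Nor do all late genes hold it. Adamts1, Adamts3, Adamts9, Adamts14, Adamts17, Mmp23 and Timp2 were also called higher late in 1 or both arms, and their windows lack it. Mmp9, Mmp16, Mmp19 and Adamts15, called higher late as well, had no window. Letters in a window describe the sequence and do not show binding.

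With AGi, 14 of the 30 tested members were lower over the 6 days and 0 were higher (limma with the day as a block, adjusted p under 0.05). Over all tested genes 19.3% were lower and 19.6% were higher. The members' median difference was −0.47, against 0.00 for all tested genes. Among the lower members were 8 of 13 Adamts genes, 4 of 14 Mmp genes and 2 of 3 Timp genes. At an unadjusted p under 0.05 the same fit counted 1 higher member, Adamts20, and 20 lower ones. The share of all tested genes at that threshold was not counted, so these 2 counts have no background. Without the day as a block the calls of Adamts1, Mmp2, Mmp19 and Timp2 were lost (adjusted p = 0.115, 0.254, 0.491 and 0.0813). Of the 14 called members, 12 kept their call without each day in turn. When the difference had to exceed the largest hybridisation-control difference, 7 remained called: Adamts5, Adamts7, Adamts9, Adamts10, Adamts12, Mmp28 and Timp3. Over all tested genes far fewer were lower in that test as well, so the 19.3% is no background for these 7.

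**Figure D1:**
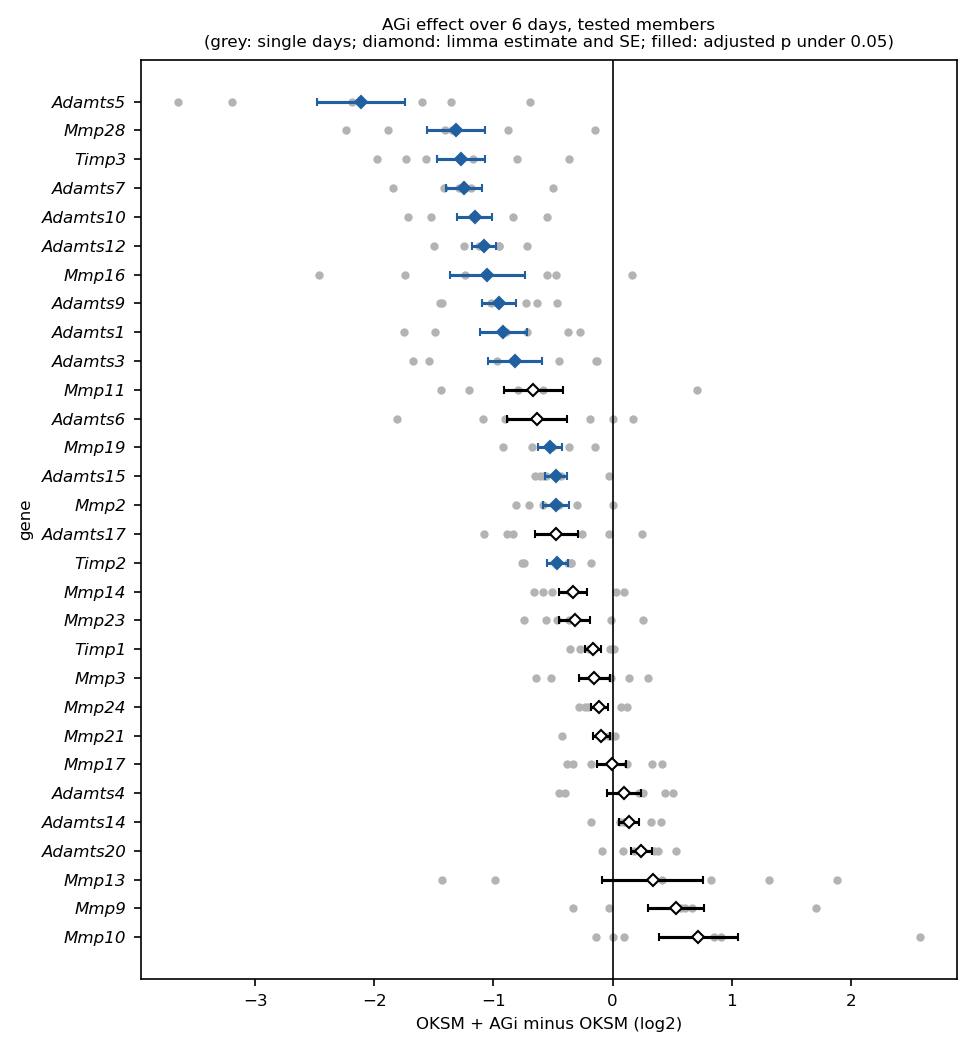
Difference between OKSM + AGi and OKSM (log2) for the 30 tested members. Grey points are the 6 single days, diamonds are limma estimates with their SE, and filled diamonds have an adjusted p under 0.05. The 14 filled diamonds all lie below 0, from Adamts5 at −2.12 to Timp2 at −0.46, and Mmp9 and Mmp10 lie highest with open diamonds.

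Adamts5, the main aggrecan-cleaving protease of mouse cartilage and a versican-cleaving enzyme of connective tissue, had the largest difference. In OKSM it was at 10.11, 9.65 and 8.75 on days 2, 4 and 6 and at 10.61, 10.78 and 10.24 on days 8, 10 and 12. With AGi it was at 9.41, 7.46 and 7.40 on the early days and at 7.42, 7.13 and 8.64 on the late ones. AGi was lower on each of the 6 days, although the arms overlapped through the AGi array of day 2 and the OKSM array of day 6. The difference was −2.12 (SE 0.37, adjusted p = 0.00426).

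Adamts1, whose gene is the neighbour of Adamts5 on chromosome 16 and which cuts versican, had a smaller difference of −0.92 (SE 0.20, adjusted p = 0.00958). In OKSM it was at 10.13, 10.25 and 9.16 on the early days and at 11.11, 11.24 and 11.54 on the late ones. Its levels with AGi were 9.86, 9.36 and 8.78 and then 9.36, 9.75 and 10.82. AGi was lower on every day, and the ranges of the arms overlapped. Adamts9, another versican protease, was lower with AGi on each day, with single-day differences of −0.46 to −1.45 (fitted difference −0.96, SE 0.14, adjusted p = 0.00253). Its levels ran from 6.88 to 8.71 in OKSM and from 6.33 to 7.69 with AGi. Adamts15 differed by −0.48 (SE 0.09, adjusted p = 0.00553) and lay between 6.28 and 7.25 on all 12 arrays. Adamts4, the other well-known aggrecanase, was not called, with levels of 7.26 to 7.67 in OKSM and 7.02 to 8.18 with AGi. Adamts20, which also cuts versican, had a difference of 0.24 and an adjusted p of 0.0614.

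Adamts7 and Adamts12, a related pair that bind and cut the cartilage protein COMP, were both lower with AGi. Adamts7 was at 10.62, 11.18 and 11.13 on the early days of OKSM and at 10.40, 10.37 and 10.24 on the late ones. In the AGi arm the levels were 10.11, 9.94 and 9.72 and then 9.21, 9.08 and 8.40. The highest AGi array lay below the lowest OKSM array, and the difference was −1.25 (SE 0.15, adjusted p = 0.00134). Adamts12 was at 9.82, 9.0 and 8.73 on the early days of OKSM and at 9.11, 9.21 and 8.82 on the late ones. The AGi levels were 9.10, 8.05 and 7.78 and then 7.99, 7.96 and 7.32. Here the arms overlapped only through the AGi array of day 2, and the difference was −1.08 (SE 0.10, adjusted p = 0.000701).

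Adamts10, a protease that binds fibrillin microfibrils, was at 9.22, 8.89 and 9.11 on the early days of OKSM and at 9.38, 9.76 and 9.81 on the late ones. With AGi the values were 8.67, 7.73 and 8.27 and then 8.22, 8.23 and 8.10. The arms did not overlap, and the difference was −1.16 (SE 0.15, adjusted p = 0.00159). Adamts6, its close relative, was at 8.72, 8.29 and 8.19 and then at 9.19, 8.98 and 9.13 in OKSM. OKSM+AGi cultures gave 8.89, 8.29 and 7.99 and then 8.28, 7.90 and 7.32. The arms were close to each other early and apart on the late days, and the difference over all 6 days was not called (−0.64, adjusted p = 0.0786).

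Adamts3, which removes the amino-terminal propeptide of fibrillar procollagens, lay near the array medians. Its levels ran from 5.94 to 7.18 in OKSM and from 5.49 to 5.91 with AGi, without overlap. Adamts3 reached the array median on OKSM arrays alone, so its lower level with AGi is partly how it was selected. The difference of −0.82 (SE 0.23, adjusted p = 0.0242) lost its call without day 8, 10 or 12 (adjusted p = 0.0712, 0.0715 and 0.0503; range over all alternatives 0.0116 to 0.144). Adamts14, another procollagen propeptidase, differed by 0.13 and was not called.

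**Figure D2:**
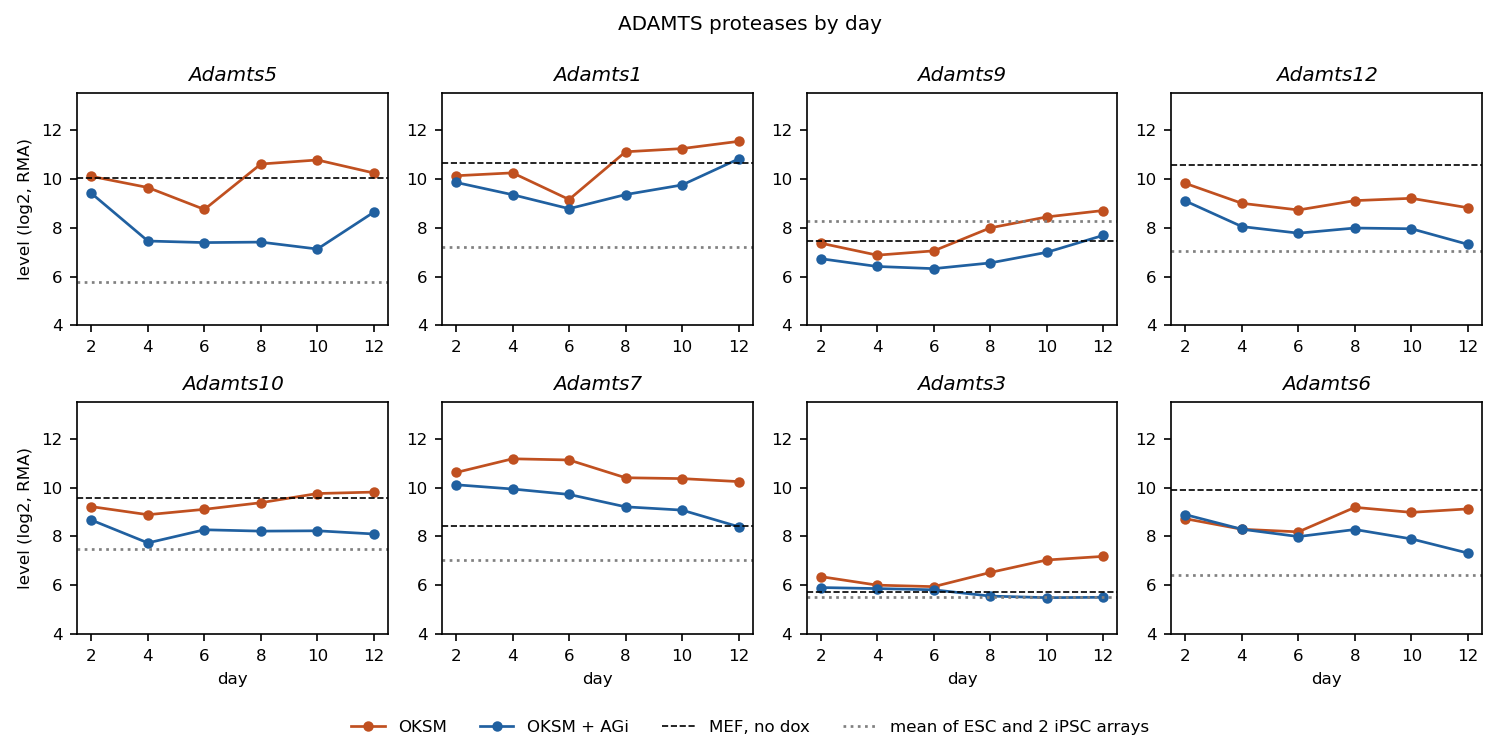
Level (log2, RMA) of 8 Adamts genes by day, 1 array per point, in OKSM and OKSM + AGi. The dashed line is the MEF array and the dotted line the mean of the ESC array and both iPSC arrays. Adamts5 with AGi stays between 7.13 and 7.46 from day 4 to day 10, while OKSM returns to 10.61 on day 8; Adamts7, Adamts10 and Adamts3 do not overlap between arms.

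Of the inhibitors, Timp3, which stays bound to the matrix after secretion, was at 11.72, 11.69 and 11.62 on the early days of OKSM and at 12.04, 12.13 and 12.00 on the late ones. With AGi it was at 11.35, 9.95 and 9.65 and then at 11.23, 10.57 and 10.83. All 6 AGi arrays lay below all 6 OKSM arrays, with the lowest AGi levels on days 4 and 6. The difference was −1.27 (SE 0.20, adjusted p = 0.00309).

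Timp2, which also takes part in activating Mmp2 together with Mmp14, was at 11.44, 11.53 and 11.43 early and at 11.91, 11.86 and 11.91 late in OKSM. In the AGi arm the levels were 11.09, 10.76 and 10.68 and then 11.53, 11.51 and 11.72. It was lower with AGi on every day, with single-day differences of −0.19 to −0.76, and the fitted difference was −0.46 (SE 0.09, adjusted p = 0.00659). Over all alternatives the adjusted p of Timp2 ran from 0.00402 to 0.182. Timp1, the inhibitor widely induced by growth factors, was at 11.99, 11.85 and 11.89 and then at 12.27, 12.07 and 11.82 in OKSM. The AGi levels were 12.00, 11.57 and 11.54 and then 12.07, 11.90 and 11.80. The arms overlapped throughout, and the difference of −0.17 (SE 0.07) was not called (adjusted p = 0.0811). With trend and robust fitting in limma Timp1 was called (adjusted p = 0.0404, range over all alternatives 0.0404 to 1.0). Timp4, which was not tested, was at 5.41, 5.69 and 5.57 and then at 5.52, 5.77 and 6.42 in OKSM. Its levels with AGi were 5.62, 5.43 and 5.45 and then 5.01, 5.16 and 5.53.

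Mmp28 (epilysin), a secreted protease known from skin and lung, was at 9.82, 9.62 and 9.80 and then at 9.42, 9.64 and 9.74 in OKSM. With AGi the values were 9.67, 8.74 and 8.45 and then 8.01, 7.75 and 7.50. OKSM stayed within a narrow range while the AGi level was lower on each later day, and the arms overlapped only through the AGi array of day 2. The difference was −1.32 (SE 0.24, adjusted p = 0.0053).

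Mmp16, a membrane-type protease, was at 7.72, 7.22 and 7.09 and then at 8.41, 8.54 and 8.82 in OKSM. OKSM+AGi cultures gave 7.88, 6.66 and 6.62 and then 7.17, 6.80 and 6.35. AGi was 0.16 higher on day 2 and lower on the other 5 days, with a difference of −2.47 on day 12. Over 6 days the difference was −1.05 (SE 0.31, adjusted p = 0.0306), and the call was lost without day 8, 10 or 12 (adjusted p = 0.0847, 0.0928 and 0.0518; range over all alternatives 0.0121 to 0.135).

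Mmp14, the membrane-type protease that activates Mmp2, lay at 11.15 to 11.57 in OKSM and at 10.49 to 11.66 with AGi. Its difference of −0.33 (SE 0.11) just missed the threshold (adjusted p = 0.0518) and passed it without day 2 or day 12 (adjusted p = 0.0304 and 0.022, range over all alternatives 0.022 to 0.879). Mmp2 (gelatinase A) differed by −0.48 (SE 0.11, adjusted p = 0.0114). Mmp11, a furin-activated Mmp, was lower with AGi on 5 of the 6 days and was not called (−0.66, adjusted p = 0.0655), with AGi 0.71 higher on day 12. Its other probe set gave −0.32.

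**Figure D3:**
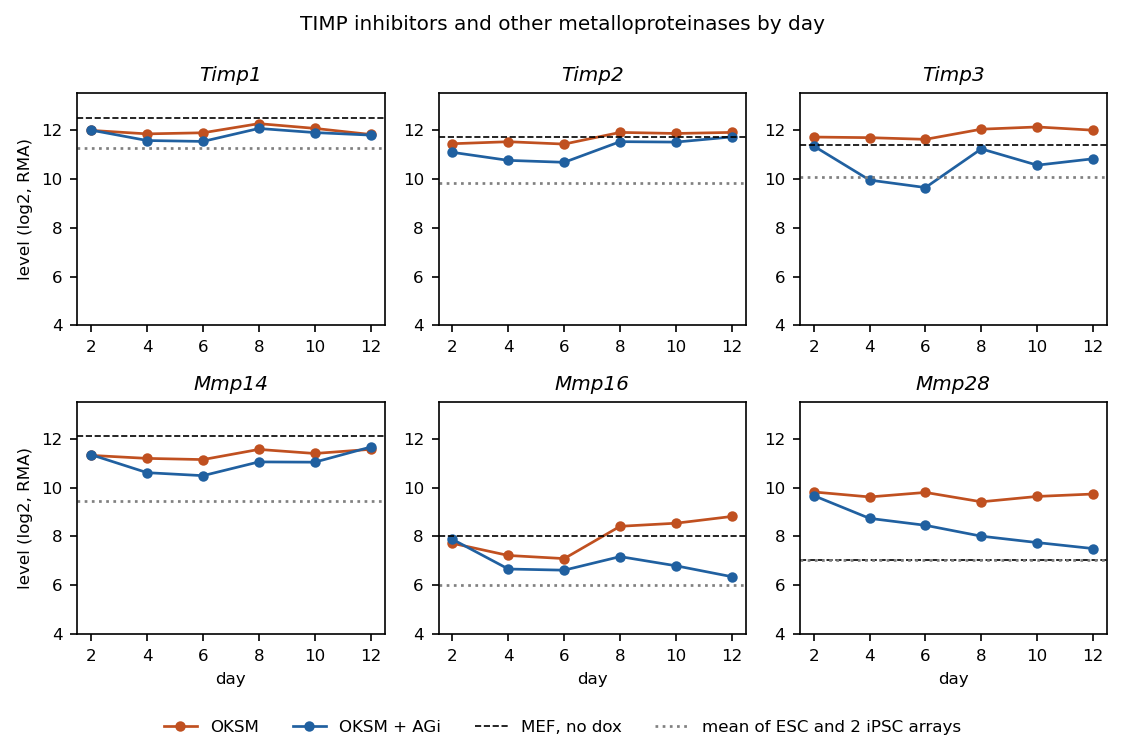
Level (log2, RMA) of 3 Timp and 3 Mmp genes by day, 1 array per point, in OKSM and OKSM + AGi, with the MEF array (dashed) and the mean of the ESC array and both iPSC arrays (dotted). Timp3 with AGi is lowest on day 6 at 9.65, Timp1 overlaps between arms, and Mmp28 with AGi goes from 9.67 on day 2 to 7.50 on day 12.

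The AGi difference was then taken for days 2 to 6 and days 8 to 12. On the early days 7 members were lower and 0 higher (limma), where 8.2% of all tested genes were lower and 6.22% higher. At an unadjusted p under 0.05, 1 member was higher and 15 were lower, and the share of all tested genes there was not counted. The 7 called members were Adamts7, Adamts9, Adamts10, Adamts12, Mmp11, Timp2 and Timp3. None of these calls was kept without day 4 or without day 6, and without day 2 the count was 11. Over all tested genes the lower calls also became far fewer without day 4 or without day 6, and their number changed little without day 2. The loss of calls is thus not particular to these members. On the late days 15 members were lower, where 20.6% of all tested genes were lower, and 2 were higher, where 20.7% were. The 15 were 10 of the 13 Adamts genes (Adamts1, Adamts3, Adamts5, Adamts6, Adamts7, Adamts9, Adamts10, Adamts12, Adamts15 and Adamts17) with Mmp2, Mmp16, Mmp19, Mmp28 and Timp3. Adamts5 differed most, by −2.82 (SE 0.39, adjusted p = 0.00167). Of these 17 late calls 14 were kept without each day in turn: Mmp2 was lost without day 8 or day 10, Timp3 without day 10 and Mmp9 without day 8.

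The 2 members that were higher with AGi on the late days were Mmp9 (gelatinase B) and Mmp10 (stromelysin-2). Mmp10 was at 6.04, 6.09 and 6.08 on the late days of OKSM and at 6.95, 6.94 and 8.65 with AGi. On the early days both arms lay between 6.17 and 6.32, and the MEF array was at 7.12, above the AGi arrays of days 8 and 10. The late difference was 1.45 (SE 0.30, adjusted p = 0.00762), and without day 12 it was 0.88 (adjusted p = 0.00209, range over all alternatives 0.00209 to 0.0191). Mmp10 entered the test only through the 3 late AGi arrays, so this difference is partly how it was selected. With a filter of 6 arrays it was not tested. For Mmp9 the late difference was 0.96 (SE 0.26, adjusted p = 0.0197). Without day 8 it was 0.59 and the call was lost (adjusted p = 0.088, range over all alternatives 0.0166 to 0.088).

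The change of the AGi difference from early to late days was called for 3 members, all lower and all Adamts genes; 1.8% of all tested genes changed in that direction. The 3 were Adamts6 (−1.26, SE 0.24, adjusted p = 0.0432), Adamts3 (−1.16, SE 0.20, adjusted p = 0.0366) and Adamts17 (−0.92, SE 0.16, adjusted p = 0.0351). By the same limma fit 0 members changed in the higher direction, where 0.642% of tested genes did. At an unadjusted p under 0.05, 3 members did so, Mmp9, Mmp10 and Mmp11, and 11 changed in the lower direction. The share of all tested genes at that threshold was not counted. Adamts17, a protease linked to fibrillin biology, was no further apart than −0.26 between arms on the early days and lower with AGi on the late days, with differences of −0.84 to −1.08. Without the day as a block none of the 3 was called (adjusted p = 0.161, 0.0565 and 0.076 in the order given), and none kept its call without each day in turn. Over all alternatives the adjusted p ran from 0.033 to 0.161 for Adamts6, from 0.0161 to 0.152 for Adamts3 and from 0.0347 to 0.13 for Adamts17.

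Several proteases were higher on day 8 than on day 6 in both arms. In OKSM 10 of the 30 tested members were at least 1 log2 higher on day 8 than on day 6, against 2.91% of all tested genes, and 0 were at least 1 lower, against 0.498%. With AGi 6 members were at least 1 higher, against 1.46%, and 0 were at least 1 lower, against 0.361%. Each of these changes compares 1 array with 1 array and has no test. In OKSM the 10 were Mmp13, Mmp3, Mmp19, Adamts1, Adamts5, Mmp16, Mmp2, Mmp9, Mmp23 and Adamts6. With AGi the 6 were Mmp3, Mmp9, Mmp13, Timp3, Mmp19 and Mmp23. Of the Adamts genes 3 of 13 passed 1 log2 in OKSM and 0 of 13 with AGi; whether the arms differ in this count was not tested.

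**Figure D4:**
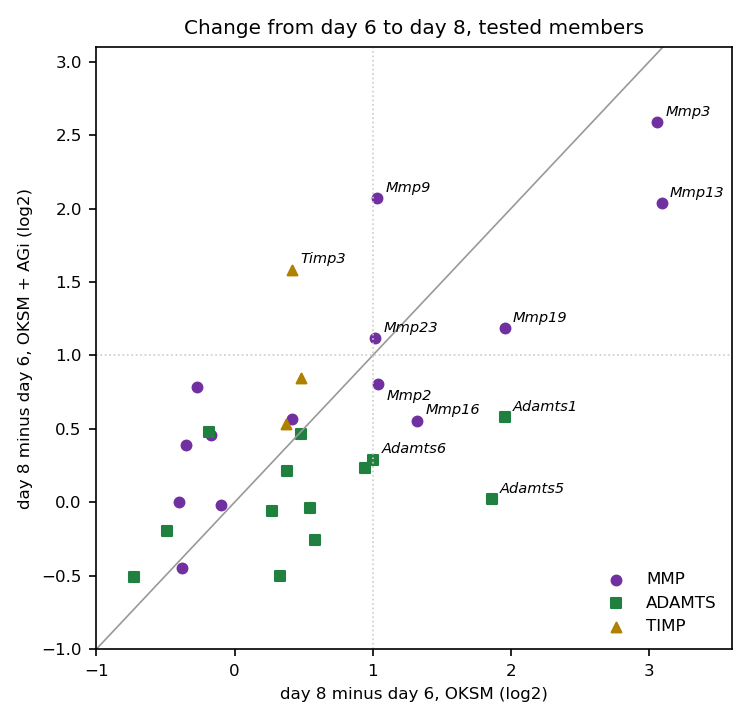
Day 8 minus day 6 (log2) in OKSM against the same in OKSM + AGi for the 30 tested members, with names where either is at least 1; each value is 1 array minus 1 array. The grey line marks equal change and dotted lines mark 1. Mmp3 and Mmp13 lie far out in both arms, Adamts5 is at 1.86 in OKSM and 0.02 with AGi, and Timp3 and Mmp9 lie above the line of equal change.

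Mmp13 (collagenase 3), which cuts fibrillar collagen, was at 5.90, 6.15 and 5.74 on days 2, 4 and 6 of OKSM and was at 8.83, 9.32 and 9.78 on days 8, 10 and 12. With AGi it was at 4.92 and 4.72 on days 2 and 4, at 7.63 on day 6, and at 9.66, 9.73 and 11.10 afterwards. The AGi arm was thus already higher on day 6, by 1.88, after differences of −0.98 and −1.43 on days 2 and 4. The values of both arms on days 2 and 4, and of OKSM on day 6, lay below the array medians (6.32 to 6.46). Late minus early, the level rose by 3.38 in OKSM (SE 0.66, adjusted p = 0.0086) and by 4.41 with AGi (SE 0.66, adjusted p = 0.00448), in a limma fit of arm and period. In OKSM the call was lost without day 10 (adjusted p = 0.0554, range over all alternatives 0.00325 to 0.0554). Mmp13 reached the array median on the late arrays and on 1 early one, so both rises are partly how it was selected. The AGi difference over 6 days was 0.34 (SE 0.42) and was not called (adjusted p = 0.561).

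Mmp3 (stromelysin-1), which cuts proteoglycans and activates other Mmps, was at 5.54, 5.07 and 5.32 and then at 8.38, 9.13 and 9.91 in OKSM. In the AGi arm the levels were 5.03, 5.21 and 5.61 and then 8.20, 8.49 and 9.90. The 2 arms followed the same course, with daily differences between −0.64 and 0.29. The rise was 3.83 in OKSM (SE 0.44, adjusted p = 0.000376) and 3.58 with AGi (SE 0.44, adjusted p = 0.00159), and both calls were kept without each day in turn. Mmp3 reached the array median on late arrays alone, so this rise is partly how it was selected.

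Mmp9, which cuts denatured and basement-membrane collagen, was at 6.74, 6.32 and 6.80 and then at 7.83, 8.85 and 9.86 in OKSM. The AGi levels were 6.40, 6.29 and 7.47 and then 9.54, 9.42 and 10.46. It was higher with AGi on each of days 6 to 12, most on day 8, by 1.71. The MEF array was at 8.65, above all early arrays of both arms and the OKSM array of day 8. The rise was 2.23 in OKSM (SE 0.47, adjusted p = 0.0137) and 3.09 with AGi (SE 0.47, adjusted p = 0.00514). Without day 4 neither was called (adjusted p = 0.0775 and 0.0519), the highest values over all alternatives. The OKSM call was also lost without day 10 (adjusted p = 0.0693).

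Mmp19, an Mmp of wide tissue range, was at 7.76, 7.43 and 7.57 and then at 9.53, 9.53 and 9.75 in OKSM. With AGi the values were 7.26, 7.06 and 7.42 and then 8.61, 8.86 and 9.21. The AGi arm was lower on each day, with differences of −0.15 to −0.92, and both arms went up. The MEF array was at 8.80, above all early arrays of both arms and the AGi array of day 8. The rise was 2.02 in OKSM (SE 0.16, adjusted p = 3.92e-05) and 1.65 with AGi (SE 0.16, adjusted p = 0.00041), and both calls were kept without each day.

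Mmp2 cuts denatured collagen and basement-membrane collagen. In OKSM it was at 12.07, 11.47 and 11.49 and then at 12.53, 12.56 and 12.70, and with AGi at 12.08, 11.02 and 10.91 and then at 11.72, 11.86 and 12.40. Its late-minus-early differences of 0.92 and 0.66 were not called (adjusted p = 0.0667 and 0.16). The MEF array was at 12.29 for Mmp2, above all early arrays of both arms and the AGi arrays of days 8 and 10. Mmp23, a small Mmp without the usual hemopexin domain, was at 8.40, 8.30 and 8.20 and then at 9.21, 9.14 and 8.81 in OKSM. OKSM+AGi cultures gave 8.38, 7.55 and 7.73 and then 8.84, 8.58 and 9.06. Late minus early, Mmp23 rose by 0.76 in OKSM and by 0.94 with AGi (limma, adjusted p = 0.0366 and 0.018). Both calls were lost without day 4, without day 6 and with a slope over day. The OKSM call was also lost without day 8 or day 10, and the AGi call without day 12. Over all alternatives the adjusted p ran from 0.00198 to 0.287 in OKSM and from 0.00314 to 0.121 with AGi. The MEF array was at 9.63 for Mmp23, above every time-course array.

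**Figure D5:**
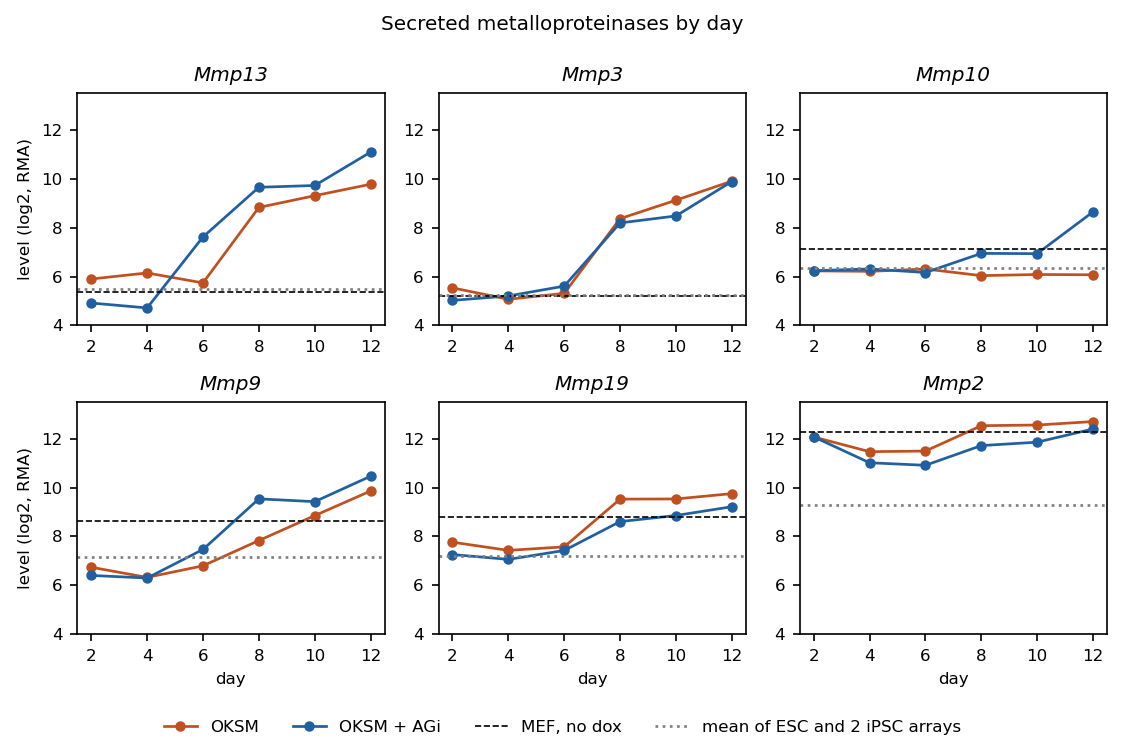
Level (log2, RMA) of 6 secreted Mmp genes by day, 1 array per point, in OKSM and OKSM + AGi, with the MEF array (dashed) and the mean of the ESC array and both iPSC arrays (dotted). Mmp13 and Mmp3 go from about the MEF level to between 9.78 and 11.10 on day 12, and of the 12 time-course values of Mmp10 only those with AGi on days 8 to 12 stand above 6.32, while the MEF array is at 7.12.

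Over all members, 12 of 30 were higher late than early in OKSM and 1 was lower (limma), where 6.95% and 3.65% of all tested genes were higher and lower. The 12 were Mmp3, Mmp9, Mmp13, Mmp16, Mmp19, Mmp23, Adamts1, Adamts3, Adamts9, Adamts15, Adamts17 and Timp2, and the lower one was Adamts20. With AGi 8 were higher and 3 lower, where 6.58% and 3.95% of all tested genes were. The 8 were Mmp3, Mmp9, Mmp10, Mmp13, Mmp19, Mmp23, Adamts14 and Timp2, and the 3 were Adamts7, Adamts20 and Mmp28. Without day 10 the OKSM count of higher members was 2 (Mmp3 and Mmp19), without day 4 it was 3, and without day 4 the AGi counts were 4 higher and 0 lower. Over all tested genes the calls also became fewer under these settings, most strongly with AGi without day 4. The shares given above belong to the fit of all days and are no background for these smaller counts. Adamts1 rose by 1.45 (SE 0.39, adjusted p = 0.0395) and Mmp16 by 1.25 (SE 0.32, adjusted p = 0.0319) in OKSM, and their AGi differences of 0.65 and −0.28 were not called. Both OKSM calls were lost when any single day other than day 2 was left out, and with a slope over day. In limma's test of the change of the AGi difference neither was called (−0.81 and −1.53, adjusted p = 0.181 and 0.0583). A rise particular to OKSM is therefore not shown. With AGi Mmp28 fell by 1.20 (SE 0.25, adjusted p = 0.0175) and Adamts7 fell by 1.03 (SE 0.21, adjusted p = 0.0154). Both calls were lost without day 4 (adjusted p = 0.0851 and 0.0898), and that of Mmp28 also without day 10 or day 12 (adjusted p = 0.068 and 0.084). Over all alternatives the adjusted p ran from 0.0002 to 0.0851 for Mmp28 and from 0.00286 to 0.0898 for Adamts7. The late-minus-early value of Mmp10 with AGi, 1.27, was 0.70 without day 12. That of Adamts14, 0.55, was 0.24 and not called (adjusted p = 0.175) with its probe sets averaged.

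Marker lists of other cell types moved over the same days. Of 14 tested macrophage markers, 9 were at least 1 log2 higher on day 8 than on day 6 in OKSM and 4 with AGi, and over the 6 days 9 were lower and 1 higher with AGi. The mean level of all 18 measured macrophage markers ran from 6.66 to 8.15 in OKSM and from 6.53 to 7.70 with AGi. Mmp12, the macrophage elastase, stayed between 5.24 and 5.68 on the 12 arrays. Of 14 fibroblast markers, 6 passed 1 log2 from day 6 to day 8 in each arm, and over the 6 days 10 were lower with AGi and 1 (Fap) higher. The part of either cell type in the members' differences was not tested. Of 7 measured markers of osteoblasts and hypertrophic cartilage, cells known for Mmp13, 4 were tested. From day 6 to day 8 Col10a1 differed by 2.79 in OKSM and 2.29 with AGi, Alpl by −0.39 and −0.02, Ihh by −0.26 and −0.12, and Bglap by −0.20 and −0.39. Of 2 tested keratinocyte markers 1 was lower with AGi, of 3 endothelial ones 2 were lower, and of 2 neutrophil ones 0 were called. Of 10 pluripotency markers 5 were higher with AGi and 0 lower.

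In the starting and end states, read from single arrays without a test, more members were lower than higher in pluripotent cells. Taking the mean of the ESC array and both iPSC arrays against MEFs, 1 of the 44 members was at least 1 log2 higher, against 7.7% of 22180 genes, and 16 were at least 1 lower, against 8.12%. The higher one was Mmp25, at 7.66 in ESCs and 6.07 in MEFs. Adamts5 was at 5.80 in ESCs, 6.20 and 5.29 in fibroblast- and GMP-derived iPSCs and 10.03 in MEFs. On day 12 of OKSM+AGi it was at 8.64. Mmp13 and Mmp3, high at the end of both time courses, were at 5.24 and 5.12 in ESCs and at 5.39 and 5.20 in MEFs.

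The Timp genes differed between the pluripotent arrays. Timp2 was at 9.91 in ESCs, 11.11 in fibroblast-derived iPSCs and 8.47 in GMP-derived iPSCs, and Timp3 was at 9.74, 11.33 and 9.17 in the same order. Both were highest in the fibroblast-derived line, whose fibroblast-marker mean was 8.17 against 7.38 in ESCs and 6.67 in GMP-derived iPSCs. Timp1 was at 11.09, 11.86 and 10.87 in these and at 7.02 in GMPs.

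On the GMP array, against MEFs, 2 of the 44 members were at least 1 log2 higher, against 7.42% of all genes, and 18 were at least 1 lower, against 8.49%. Mmp8, the neutrophil collagenase, was at 12.44 in GMPs and between 5.64 and 5.89 on the other 17 arrays. Mmp19 was at 10.15 in GMPs and 8.80 in MEFs. The Timp2 and Timp3 levels of 7.76 and 8.71 were below those of every other array.

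Some members stood apart from MEFs already on day 2 of OKSM. Mmp28 was at 7.04 in MEFs, 9.82 on day 2 and 9.22 in the sorted Thy1+ cells, and Adamts7 was at 8.41, 10.62 and 10.48. Mmp9 went the other way, at 8.65, 6.74 and 6.75. These are differences between single arrays and have no test.

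Other genes of the same pathway were read from lists. Of 7 tested Adamts-like proteins, which share the ancillary domains but lack the protease, 4 were lower with AGi and 1 was higher (limma). Adamtsl3 differed by −2.33 (adjusted p = 0.00426), Adamtsl1 by −1.20, Adamtsl4 by −1.16 and Papln by 0.75. Of 10 membrane Adam proteases 5 were lower and 1 higher. Adam12 differed by −0.69, Adam23 by −0.57 and Adam19 by 0.46. Of 4 tested genes of the plasminogen system, which activates pro-Mmps, 1 was lower, Plau (urokinase) at −0.83.

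Of 8 tested genes listed as inhibitors outside the Timp family, 4 were lower and 1 higher with AGi. The lower ones were Reck, Serpinh1 (−0.46), Serpinf1 (−0.44) and Cst3 (−0.39). Cst3 inhibits cathepsins, while Serpinf1 (PEDF) and Serpinh1, a collagen chaperone, are serpins not known as protease inhibitors. Reck, a membrane-anchored Mmp inhibitor, differed by −0.89 (SE 0.09, adjusted p = 0.00088), and the secreted inhibitor-like protein Wfdc2 by 0.64. Of 7 activators and co-factors 3 were lower: Pcsk5, Pcolce and Furin, at −0.79, −0.53 and −0.42. Of 11 matrix substrates 6 were lower, with elastin (Eln) at −0.91 and Col3a1 at −0.73, and Lama1 was higher at 0.74. Of 13 tested cathepsins and other matrix peptidases 3 were lower and 1 was higher, with Ctss at −0.73, Bmp1 at −0.69 and Fap at 0.52. Of 13 regulators of Mmp transcription 3 were lower and 1 higher: Fos, a component of AP-1, at −1.01, Ets1 at −0.72, Rela at −0.24 and Ets2 at 0.80. Each share can be read against the 19.3% of all tested genes that were lower. Col1a1, Col3a1 and Fap also stand in the fibroblast list, and these lists were chosen with earlier results known.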

How the data were processed

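RNA was hybridised to Affymetrix mouse gene arrays. The deposited log2 signals come from the authors' RMA summary in Affymetrix Expression Console (submitters' processing notes). No genome build for the probe sets is given in the sources used here, and no probe coordinates are printed. Of 41345 probe sets on 18 arrays, 23521 had a single gene symbol, updated through RefSeq (GRCm38.p6). The 44 members took 48 probe sets, and 4 members had 2. The 2 RefSeq members Adamts2 and Mmp15 had no probe set with a single symbol and are not analysed here.

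All tests used limma (version 3.58.1, R 4.3.3) with eBayes and Benjamini-Hochberg adjustment over all 13865 genes at a threshold of 0.05. The AGi effect had the day as a block (5 residual degrees of freedom), its early, late and change values an arm by period fit with the day as a block (4), and late minus early a fit of 4 groups (8). With 1 array per arm and day, and nothing said of separate cultures, a p-value here reflects variation from day to day, which may be technical. Scripts were tested on simulated data. The number of arrays limits the precision.

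Members and lists were chosen with earlier results of these data known. Every-day values are given for members with a called AGi effect of at least 1 log2 or a day 6 to 8 change of at least 1, and for Timp genes. The further genes named with values were chosen after their values were seen: Adamts3, Adamts4, Adamts9, Adamts14, Adamts15, Adamts17, Adamts20, Mmp8, Mmp10, Mmp11, Mmp12, Mmp14 and Mmp25. At most 4 genes per related list are named by their AGi effect; Cst3, Col10a1, Alpl, Bglap and Ihh were added after their values were seen. Alternatives were the filter, probe-set averaging, renormalization, trend and robust fitting, the day block, a minimum difference, other day sets, a slope and leaving out each day.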

Additional observations from a re-analysis of the deposited data

Results flagged for a closer look

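Of 88 groups of 6 arrays (44 members in each arm), 7 had 1 array far from the other 5, by Dixon's test. Its rate of about 1 in 20 groups by chance holds for replicates. The 6 arrays here are different days, so a change over days can also stand out and that rate need not apply. Mmp10 in OKSM+AGi was at 8.65 on day 12, and the next highest array was at 6.95. Adamts16 in OKSM was at 6.28 on day 2 and Timp4 in OKSM at 6.42 on day 12. Mmp7 in OKSM was at 6.08 on day 6, Mmp21 in OKSM+AGi at 6.53 on day 4, Mmp1b in OKSM at 4.18 on day 10, and Mmp20 in OKSM+AGi at 5.06 on day 12. Mmp10 and Mmp21 are tested members, and the other 5 stayed too low to be tested.

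The AGi difference changed from early to late days for 3 members by limma's test of the change itself. These were Adamts6 at −1.26 (adjusted p = 0.0432), Adamts3 at −1.16 (adjusted p = 0.0366) and Adamts17 at −0.92 (adjusted p = 0.0351). None of the 3 was called without the day as a block.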

How the results depend on the processing

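Single member values were followed under the alternatives if called in the main fit. The uncalled AGi effects of Mmp3, Mmp9, Mmp10, Mmp13, Mmp14 and Timp1 were followed as well. Of these 865 recomputed values, 733 stayed on the same side of the threshold, 126 lost a call, 6 gained one and 0 reversed. Gains among the other uncalled values are not in the 6. For counts over the 6 days with AGi, renormalized values gave 1 higher member, the minimum difference set by the largest hybridisation control gave 7 lower members, and leaving out single days gave 0 to 1 higher and 12 to 16 lower. Leaving out days gave 0 to 11 lower members for early days and 1 to 3 higher for late days, where a filter of 6 arrays gave 1. For the change of the difference it gave 0 to 1 higher and 0 to 3 lower, and the fit without the replicate block, which pairs the arms by day, gave 0 lower. For late minus early, leaving out days gave 2 to 15 higher and 0 to 1 lower in OKSM, and 4 to 11 higher and 0 to 3 lower with AGi. A slope over day gave 7 higher in OKSM and 5 lower with AGi, and days 8 and 10 against 4 and 6 gave 13 higher with AGi. At 0.5 log2 the day 6 to 8 change counted 1 lower member in OKSM, and 13 higher and 2 lower with AGi. The share of all tested genes past 0.5 log2 was not counted. The calls over all tested genes also changed in number under many of these settings, so the shares of the main fits are no background for these counts. The cause of these shifts was not tested. With 1 array per arm and day, day and array cannot be told apart, and members near the array median have little signal over background.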

Other observations

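The sorted Thy1+ cells, taken after 3 days of OKSM, were compared with the mean of the OKSM arrays of days 2 and 4. Adamts1, at 9.59, differed from that mean by −0.61 and Adamts5, at 9.20, by −0.68. Timp3 at 11.77, Mmp14 at 11.21 and Mmp2 at 11.86 differed by 0.07, −0.05 and 0.09. Mmp13 was at 4.91 and Mmp3 at 5.17, with differences of −1.12 and −0.14. Neither was at the level it had on day 8 of either arm, and both lay below the array medians (6.32 to 6.46).

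Adamts9 and Adamts14 were members whose pluripotent arrays were not lower than the early OKSM arrays. Adamts9 was at 8.35 in ESCs, 8.26 in fibroblast-derived iPSCs and 8.27 in GMP-derived iPSCs, against 7.46 in MEFs. Adamts14 was at 8.47, 8.28 and 8.36, against 8.65 in MEFs. Mmp11 was at 9.14, 8.56 and 8.78, against 8.05 in MEFs and 6.30 in GMPs.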
